A study of Homo sapiens with 7 samples.

Results

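The NEDD9 locus is taken here as the stretch of chromosome 6 from 11.1 to 11.6 Mb (build hg19), with the body of NEDD9 at about 11.183 to 11.383 Mb on the minus strand. Its members are the peaks of 5-hydroxymethylcytosine (5-hmC) whose midpoint lies in that stretch: 399 peaks of 1873636 in the 6 deposited peak lists together. The locus was chosen from these same lists for its gain of peaks under hypoxia, so its change with time is given as a description, with no test. The lists come from SK-N-BE(2), an established MYCN-amplified neuroblastoma cell line, labelled wild type and grown in RPMI with serum. Cells were kept at 21% oxygen (0 h, normoxia) or at 1% oxygen for 6, 12, 24, 48 or 72 h, with 1 captured library per time, and an input library at 21% oxygen was not analysed here. With 1 library per time there is no replicate error, and a difference between times cannot be told apart from a difference between libraries.

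NEDD9 (also HEF1 or CAS-L) encodes a scaffold protein of the Cas family. It has no catalytic activity of its own, binds focal adhesion kinase and Src family kinases at focal adhesions, and is known for its part in cell migration and in mitosis. 5-hmC is made from 5-methylcytosine by the TET enzymes, dioxygenases that use molecular oxygen, iron and 2-oxoglutarate, and in many tissues it is found over the bodies of transcribed genes and at enhancers. In the capture used here, 5-hmC is given an azide-bearing glucose, biotin is clicked onto it, and the fragments are pulled down, so a peak marks a stretch rich in 5-hmC without saying which cytosine carries it.

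RefSeq (GRCh38.p14) lists 3 transcription start windows for NEDD9, a pair of distal ones 38 bp apart at the far end of the gene and an internal one 149.7 kb farther into it. The outermost distal window and the internal one are printed 5′ to 3′ on the strand of the gene, from 250 bases before to 50 after the start, because the upper end of the body is where a peak appeared only late. Capitals mark CpG, the dinucleotide at which most 5-hmC of somatic cells is found.
NEDD9 distal start: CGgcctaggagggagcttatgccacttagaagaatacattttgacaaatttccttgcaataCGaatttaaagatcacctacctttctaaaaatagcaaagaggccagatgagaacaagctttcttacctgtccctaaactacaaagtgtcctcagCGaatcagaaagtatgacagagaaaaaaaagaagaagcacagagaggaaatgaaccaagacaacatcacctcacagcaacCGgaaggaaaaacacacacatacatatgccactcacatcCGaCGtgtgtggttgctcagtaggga
NEDD9 internal start: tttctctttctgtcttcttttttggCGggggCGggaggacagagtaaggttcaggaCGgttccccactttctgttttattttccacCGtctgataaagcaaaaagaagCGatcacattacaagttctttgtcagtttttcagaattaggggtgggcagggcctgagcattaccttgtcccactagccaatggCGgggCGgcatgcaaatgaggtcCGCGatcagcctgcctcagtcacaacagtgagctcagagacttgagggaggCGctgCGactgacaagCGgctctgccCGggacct
The distal window holds 6 CpG at a GC content of 42.0%, and the internal one 13 CpG at 52.7%, against a median of 14 over the 35116 promoter windows of that table. Of the letters searched on both strands, ACGTG, the core of the element bound by hypoxia-inducible factors, is in the distal window once, 27 bases after the start, and 21.4% of all promoter windows hold it. GCGTG (36.5% of windows) and CACGTG, which contains ACGTG (7.3%), are in neither window. These windows are in another build than the lists and were not placed on the peaks.

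Read depth is unknown, since the lists hold positions alone. The 6 lists had between 285292 and 352484 peaks and covered 146.7 Mb in normoxia, 157.2 Mb after 6 h, 154.2 Mb after 12 h, 165.1 Mb after 24 h, 178.8 Mb after 48 h and 192.1 Mb after 72 h. A longer list can come from deeper sequencing or a better capture. The scaled ratios below therefore divide the ratio of covered length to 0 h by the ratio of the list totals. A value of 1 means a change like that of the whole list. A change shared by the whole list is divided out whatever its source, which 1 library per time cannot tell. Scaling does not remove a bias that acts more on weak sites, and the part of list length in the results was not tested.

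Over the whole locus, 5-hmC peaks became denser between 24 and 72 h, and no site that normoxic cells had was missing after 72 h. The locus held 44 peaks in normoxia, 52 after 6 h, 49 after 12 h, 62 after 24 h, 93 after 48 h and 99 after 72 h. As a share of all peaks this was 0.0154% in normoxia (95% Clopper-Pearson interval 0.0112 to 0.0207%) and 0.0281% after 72 h (0.0228 to 0.0342%), intervals that cover counting error only. They treat the peaks of a library as independent, and the locus was chosen for this gain, so comparing them is no test of it. The first 3 lists lay close together and the lists of 48 and 72 h stood well above them. Covered length was 19.6 kb in normoxia, 24.6 kb after 6 h, 22.1 kb after 12 h, 29.5 kb after 24 h, 44.5 kb after 48 h and 50.8 kb after 72 h. Relative to the list totals this was 1.17, 1.07, 1.34, 1.87 and 1.98 times the normoxia level from 6 to 72 h, while the rest of chromosome 6 stood at 1.06 after 72 h. Median peak width in the locus was 374.5 bp in normoxia, 411 bp after 6 h, 402 bp after 48 h and 426 bp after 72 h. In the whole lists it was 395, 411, 409 and 421 bp at these times. Peaks of at least 500 bp in the locus numbered 11 in normoxia and 39 after 72 h, with no count over the whole lists given here. The regions nearest to the bounds, just inside at 11100403 to 11100835 and 11579387 to 11579668, and just outside at 11097732 to 11098103 and 11606416 to 11606805, were all absent in normoxia.

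**Figure D1:**
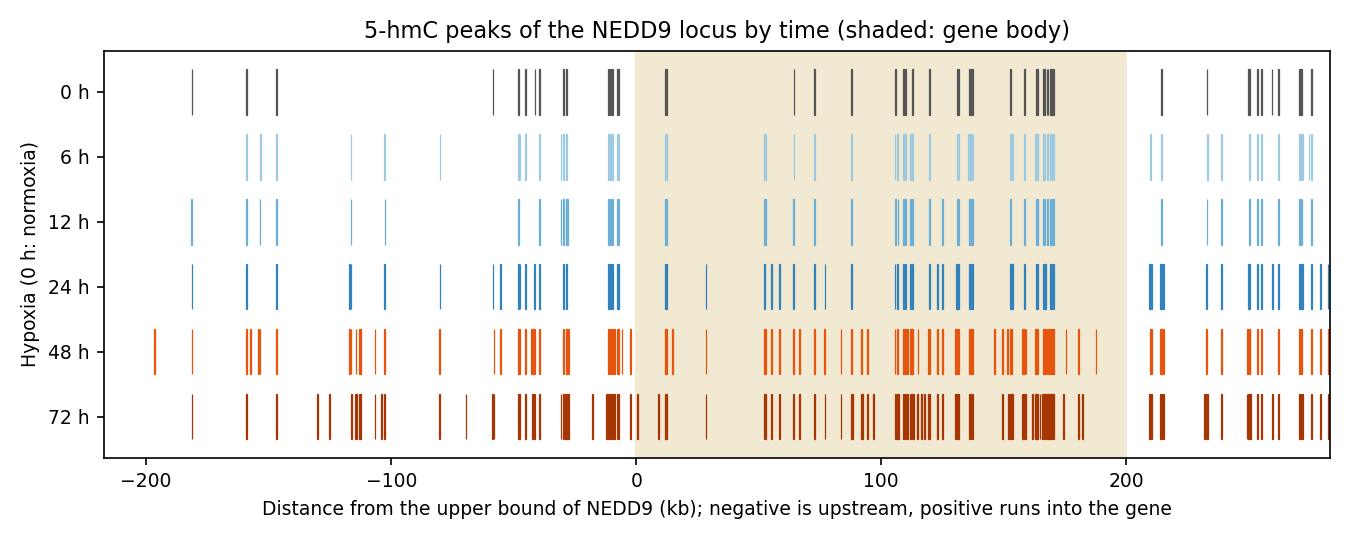
Each bar is a peak of the NEDD9 locus, drawn to scale by its distance in kb from the upper bound of the gene (x axis; negative is upstream, the shaded part is the gene body), with 1 row per list from 0 to 72 h. The rows of 48 and 72 h hold 93 and 99 peaks against 44 in normoxia, and new peaks lie between the old ones in the gene as well as upstream of it.

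In the gene body most new peaks came after 24 h. It held 20 peaks in normoxia, 24 after 6 h, 24 after 12 h, 27 after 24 h, 44 after 48 h and 49 after 72 h. Covered length in the body was 10.6 kb in normoxia, 12.9 kb after 6 h, 12.1 kb after 12 h, 14.9 kb after 24 h, 22.8 kb after 48 h and 26.1 kb after 72 h, or 5.31% of the body in normoxia and 13.0% after 72 h. Against the list totals the body stood at 1.14, 1.08, 1.25, 1.76 and 1.87 from 6 to 72 h. Its largest step lay between 24 and 48 h, with 7.89 kb added (52.9%, against 8.27% for the whole list). From 6 to 12 h covered length in the body fell by 0.869 kb (-6.72%), and the whole list shortened as well (-1.88%).

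Upstream of NEDD9 the proportional gain was larger than in the body. In the 217 kb above the gene, covered length was 4.88 kb in normoxia, 6.89 kb after 6 h, 5.57 kb after 12 h, 7.64 kb after 24 h, 13.2 kb after 48 h and 15.5 kb after 72 h, with 14 peaks in normoxia and 31 after 72 h. The scaled ratios were 1.32, 1.09, 1.39, 2.23 and 2.43 from 6 to 72 h, above those of the body at all 5 times. With peaks of at least 500 bp alone the 72 h ratio was 7.42 upstream and 1.82 in the body. The upstream value has a narrow base, since the only upstream peak that wide in normoxia was that of 804 bp, and the next measured 484 bp. The order of the 2 parts after 72 h turned round when peaks were counted instead of measured, with 1.79 upstream and 1.98 in the body. Downstream, in the 83 kb below the gene, covered length was 4.09 kb in normoxia, 4.80 kb after 6 h, 4.44 kb after 12 h, 6.91 kb after 24 h, 8.48 kb after 48 h and 9.22 kb after 72 h. There the scaled ratio was 1.502 after 24 h, 1.70 after 48 h and 1.72 after 72 h, so most of the downstream gain was in place a step earlier than in the body. With peaks of at least 500 bp alone it was 4.27 after 72 h, over a normoxia base of the 987 bp peak alone. In RefSeq order the coding genes nearest to NEDD9 are SMIM13 and ERVFRD-1 on the downstream side and TMEM170B on the upstream side. ERVFRD-1 encodes syncytin-2, an envelope protein of retroviral origin known from the placenta. Outside the locus the next 500 kb on each side were sparse: 2.52 kb in normoxia and 5.12 kb after 72 h below it (scaled ratio 1.55, on 7 and 13 peaks), and 6.77 and 10.9 kb above it (1.23). From 6 to 48 h the ratios below it were 1.25, 1.22, 1.46 and 1.82, on 9 to 12 peaks. These were above the ratios of the body at the same times. Above the locus they were 1.05, 1.11, 1.29 and 1.15.

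**Figure D2:**
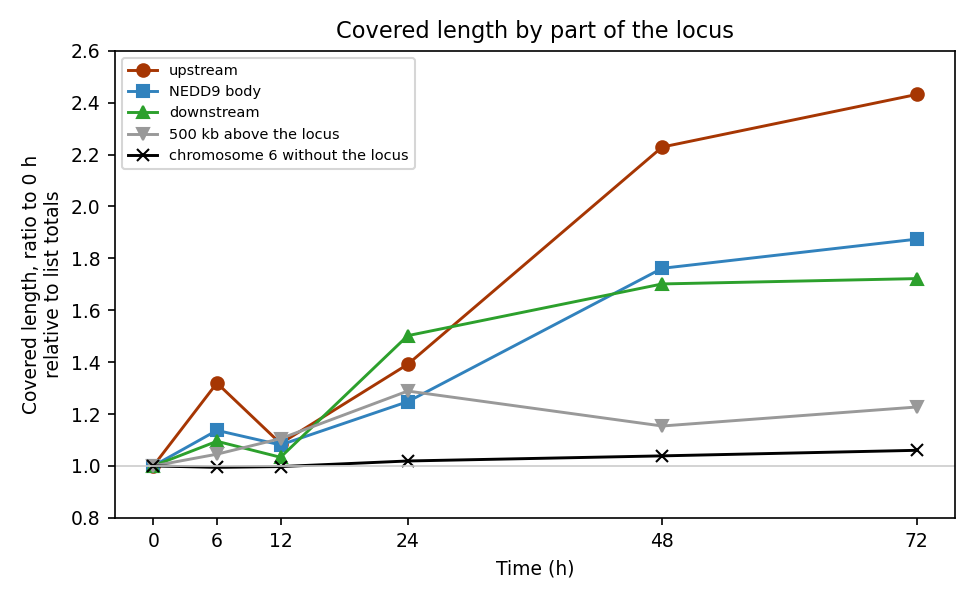
Covered length relative to 0 h and to the list totals (y axis) is drawn against hours (x axis, 0 h is normoxia) for the parts of the NEDD9 locus, the 500 kb above it and the rest of chromosome 6, with 1 library per point and no error. The upstream part reaches 2.43, the body 1.87 and the downstream part 1.72 after 72 h, while the rest of chromosome 6 stays between 0.994 and 1.06. The sparse 500 kb below the locus, at 1.82 after 48 h and 1.55 after 72 h, is not drawn.

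In windows of 50 kb laid from the gene's bounds, the gain was uneven along NEDD9. The 3′ part of the gene was already dense in normoxia and gained less in proportion. Its last window (11.183 to 11.233 Mb) covered 4.89 kb in normoxia, 5.47 kb after 6 h, 4.86 kb after 12 h, 4.93 kb after 24 h, 8.03 kb after 48 h and 9.30 kb after 72 h, with a scaled ratio after 72 h of 1.39 (0.5 kb was added to both lengths in all window ratios). The next window (11.233 to 11.283 Mb) went from 4.11 kb in normoxia to 6.47 kb after 24 h and 9.71 kb after 72 h, a ratio of 1.69. In contrast to these, the window from 11.283 to 11.333 Mb was nearly bare in normoxia. It covered 0.979 kb on 3 peaks in normoxia, 1.57 kb after 6 h, 1.53 kb after 12 h, 2.45 kb after 24 h, 4.53 kb after 48 h and 5.15 kb on 13 peaks after 72 h, a ratio of 2.92. The 5′ window of the gene (11.333 to 11.383 Mb) stayed sparse, with 0.646 kb in normoxia and 1.91 kb after 72 h (1.60). The longest stretch of the body without a peak fell from 51.6 kb in normoxia to 23.5 kb after 72 h.

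Directly upstream, the window from 11.383 to 11.433 Mb covered 3.83 kb in normoxia, 4.69 kb after 24 h, 7.49 kb after 48 h and 9.63 kb after 72 h (1.79), a length like that of the dense 3′ windows. The largest window ratio of the locus lay farther up, from 11.483 to 11.533 Mb. There covered length was 0.268 kb on 1 peak in normoxia, 0.954 kb after 6 h, 0.812 kb after 12 h, 1.39 kb after 24 h, 2.52 kb after 48 h and 3.87 kb on 10 peaks after 72 h (4.34). Its neighbours were 2 windows with a mean below 1 kb, which were not counted: 11.433 to 11.483 Mb, with 0.234 kb in normoxia and 1.27 kb after 72 h, and 11.533 to 11.583 Mb, with 0.544 and 0.766 kb. The latter had 1.99 kb after 48 h, so its 72 h value was the lower of the late pair. On the downstream side the window from 11.133 to 11.183 Mb covered 0.902 kb in normoxia, 2.40 kb after 24 h and 4.11 kb after 72 h (2.51). The remaining downstream stretch, from 11.1 to 11.133 Mb, held most of the downstream length in normoxia and changed less, from 3.19 kb in normoxia to 4.52 kb after 24 h and 5.11 kb after 72 h (1.16).

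Of the 7 windows of the locus with a mean of at least 1 kb, a scaled ratio of 1.5 or more was reached by 1 after 6 h (2.15% of the 33457 such windows of chromosomes 1 to 22 and X), 1 after 12 h (2.02%), 3 after 24 h (3.34%), 5 after 48 h (6.53%) and 6 after 72 h (7.9%). None of the 7 was below the inverse of that ratio after 72 h, against 2.27% of all windows. The median of the 7 was 1.79 after 72 h and that of all windows 0.995. Since the locus was selected on this gain, these shares describe it and support nothing further. With peaks of at least 500 bp alone, 3 windows kept a mean of 1 kb and 2 of them reached the ratio, against 12.4% of all windows.

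**Figure D3:**
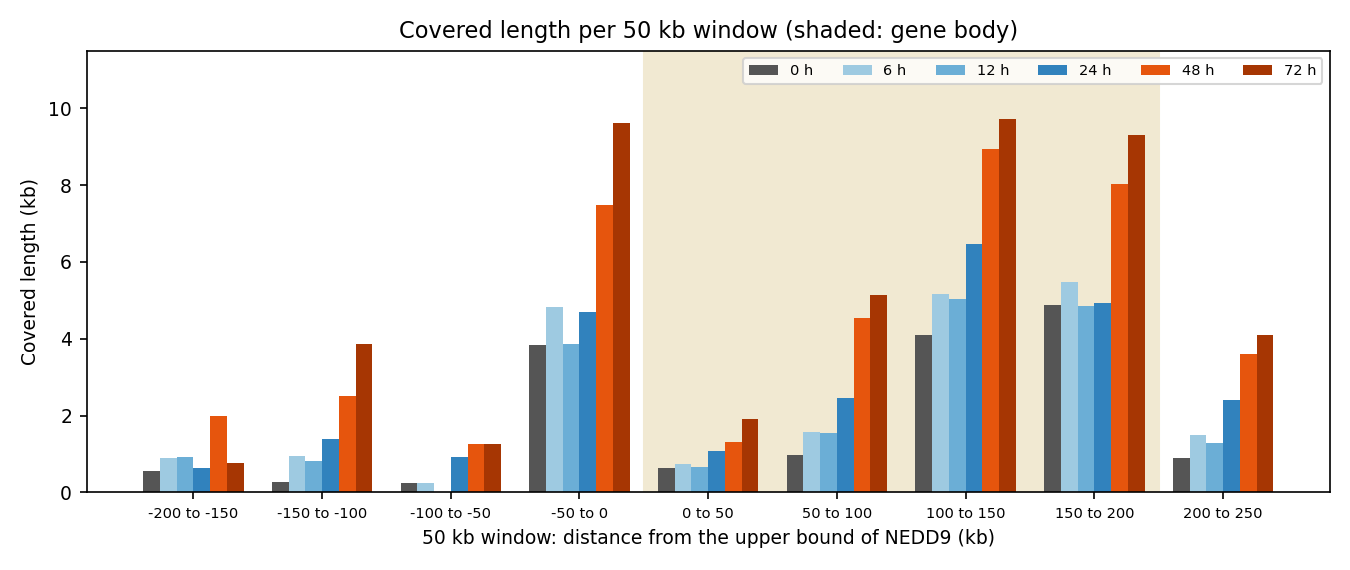
Bars give the covered length in kb (y axis) of the 9 full 50 kb windows of the locus, ordered by distance from the upper bound of NEDD9 (x axis, shaded: gene body), in the 6 lists from 0 to 72 h. The windows at 100 to 200 kb into the gene and the one directly upstream are the longest at every time, and the window 50 to 100 kb into the gene goes from 0.979 kb in normoxia to 5.15 kb after 72 h.

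Merging overlapping peaks of the lists gave 109 regions in the locus, 52 of them in the body, 38 upstream and 19 downstream. A total of 35 regions (32.1%) were in all 6 lists, against 46.8% of the 415474 regions of the genome. Fewer of its regions were present in normoxia to begin with (37.6%, against 62.7% of all). Among the regions present in normoxia, 35 of 41 were in all 6 lists. Genome-wide this was 194585 of 260593, a smaller share than in the locus. Absent in normoxia and present after 72 h were 55 regions (50.5%; 24.3% of all regions), 28 of them in the body, 18 upstream and 9 downstream. Of these 55, 5 regions were in every hypoxia list (4.59% of the 109 regions, 2.99% of all). Genome-wide it was 12439 of the 100794 regions new after 72 h, a larger share than 5 of 55. With peaks of at least 500 bp alone, 8 regions were in all 6 lists, 28 were new after 72 h and 1 of those was in every hypoxia list. The 55 became 35, and the 5 became 3, with the same number of peaks per list, widest first. None of the 41 regions present in normoxia was missing after 72 h, where 6.41% of all regions show that loss. Counted within the regions present in normoxia, the loss was 0 of 41 in the locus and 10.2% in the genome. Of the 41, 6 were missing from at least 1 earlier hypoxia list (5.50% of the 109 regions). Genome-wide, 15.9% of all regions were present in normoxia and missing from at least 1 hypoxia list. That is 66008 of the 260593 regions present in normoxia, a larger share than 6 of 41. With the widest peaks alone, 2 regions of the locus were lost. The counts with wide or widest peaks were made in the locus alone. Without a share of all regions beside them, they cannot be set against the genome.

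Most new sites of the locus were late. Of the 68 regions absent in normoxia, 10 were first seen in the 6 h list, 1 in that of 12 h, 11 in that of 24 h, 28 in that of 48 h and 18 in that of 72 h. Once seen, 5 of the 10, the 1, 8 of the 11 and 19 of the 28 were in every later list. Genome-wide the order was another one. There 47245 regions were first seen in the 6 h list, 24541 in that of 12 h and 24229 in that of 24 h. First seen in the 48 h list were 29261, and in that of 72 h 29605. Of those first seen at 6, 12, 24 and 48 h, 12439, 5775, 8058 and 14984 were in every later list. As shares of all regions, those first seen from 6 to 72 h were 11.4, 5.91, 5.83, 7.04 and 7.13%. In the locus these shares of its regions were 9.17, 0.917, 10.1, 25.7 and 16.5%. In the 48 h list alone were 9 regions (8.26%; 3.44% of all), 5 in the body and 4 upstream. Regions absent at both 0 and 6 h and present at both 48 and 72 h numbered 28 (25.7%, against 7.82% of all), a count that asks for 2 lists on each side.

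Among the regions that gained most, the foremost lay upstream of NEDD9, on chromosome 6 from 11410311 to 11411786. It covered 290 bp in normoxia, 367 bp after 6 h, 519 bp after 12 h, 453 bp after 24 h, 869 bp after 48 h in 2 peaks and 1476 bp after 72 h in 1 peak, the widest peak of the locus at that time. A second upstream region, from 11430294 to 11431443, went from 484 bp in normoxia to 963 bp after 48 h and 1121 bp after 72 h. In the body, the region from 11251344 to 11252778 covered 604 bp in normoxia, 679 bp after 6 h, 575 bp after 12 h, 1279 bp after 24 h, 1415 bp after 48 h and 1349 bp after 72 h. It thus changed between 12 and 24 h, earlier than the body as a whole. The regions from 11269859 to 11271280 (453 bp in normoxia, 982 bp after 6 h and 1152 bp after 72 h) and from 11223779 to 11224972 (354 bp in normoxia, 527 bp after 24 h and 955 bp after 72 h) were also present throughout.

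The other 5 of the 10 regions with the largest gain had no peak in normoxia. In the body, the region from 11330139 to 11330921 covered 462 bp after 6 h, 580 bp after 12 h, 372 bp after 24 h, 764 bp after 48 h and 680 bp after 72 h. The region from 11275929 to 11276542 likewise was in every hypoxia list, with 306 bp after 6 h, 260 bp after 12 h, 318 bp after 24 h, 500 bp after 48 h and 584 bp after 72 h. Later came the region from 11290779 to 11291401, with 240 bp after 48 h and 623 bp after 72 h. Downstream of the gene, the region from 11103434 to 11104156 was first seen in the 24 h list (502 bp, then 723 and 683 bp). The region from 11172615 to 11173387 had 402 bp after 6 h, none after 12 h, 342 bp after 24 h, 773 bp after 48 h and 653 bp after 72 h.

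The 5 sites named for their width in normoxia had 72 h lengths between 0.978 and 1.32 times those in normoxia. Downstream, the region from 11111078 to 11112696 covered 1333 bp in normoxia, 1541 bp after 24 h and 1382 bp after 72 h. In the body, the regions from 11215835 to 11217283 (1053 and 1339 bp at 0 and 72 h), 11218943 to 11220186 (933 and 1236 bp) and 11246485 to 11247518 (824 and 869 bp) were the widest in normoxia. Upstream, the region from 11389972 to 11390778 lay between 779 and 807 bp in all 6 lists (804 bp in normoxia, 786 bp after 72 h), while the nearest other site seen in normoxia, from 11392493 to 11393099, went from 352 bp in normoxia to 607 bp after 72 h. The first 2 of these body regions belong to a close group of sites in the 3′ part of NEDD9 from 11212395 to 11220186.

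At the upper end of the body, the distal start side, the nearest normoxia sites were centred 12.1 kb inside the bound and, upstream of it, at -7.37 kb. A peak of 425 bp from 11382246 to 11382670, whose centre is 0.542 kb inside the upper bound, was in the 72 h list alone. Another, from 11385029 to 11385419, lies 2.22 kb outside the bound and was seen after 48 h (373 bp) and 72 h (391 bp). The bound is that of the rule, rounded to 1 kb, so neither peak was set against the start printed above. A peak in a single list has no second library behind it, and 7.13% of all regions were likewise in the 72 h list alone.

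Both new sites and longer old sites made up the gain. From 0 to 72 h the locus added 31.2 kb, of which 20.2 kb (64.6%) lay in regions absent in normoxia and 11.1 kb in regions present at both times. Over all lists, regions absent in normoxia held 34341 kb, and regions present at both times grew by 18846 kb. There 7792920 bp were lost as well, against 0 bp in the locus. The part of new regions in the net gain over all lists, 75.7%, is raised by that loss and is not comparable with the 64.6%. With the loss left out, the 34341 and 18846 kb of all lists split much as the 20.2 and 11.1 kb of the locus. The division between new and longer sites was therefore not particular to the locus. In the body new regions held 9.87 kb of 15.4 kb (63.9%), upstream 6.44 kb of 10.7 kb (60.5%) and downstream 3.86 kb of 5.13 kb (75.2%). Regions present at both times grew by 52.4% in the body, 86.3% upstream and 31.2% downstream, against 13.6% for all such regions of the genome. Of the 41 such regions in the locus 38 were longer and 3 shorter after 72 h, where 71.6% of all such regions were longer. New regions were narrow, with a median of 334 bp, close to the 311 bp of new regions genome-wide.

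For 26 regions of the locus with exactly 1 peak in each list, the median width was 406 bp in normoxia, 441 bp after 6 h, 450 bp after 12 h, 493 bp after 24 h, 547.5 bp after 48 h and 610.5 bp after 72 h. For all 155718 such regions the median was 434 bp in normoxia and 502 bp after 72 h. In the locus 11 of the 26 (42.3%) were at least 1.5 times wider after 72 h, against 14.2% of all. Wider at all were 23 of 26 (71.2% of all), and also 23 of 26 (65.5% of all) after the narrowest width of each list was subtracted. The body had 5 of 13 regions past 1.5 times, the upstream part 4 of 6 and the downstream part 2 of 7.

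**Figure D4:**
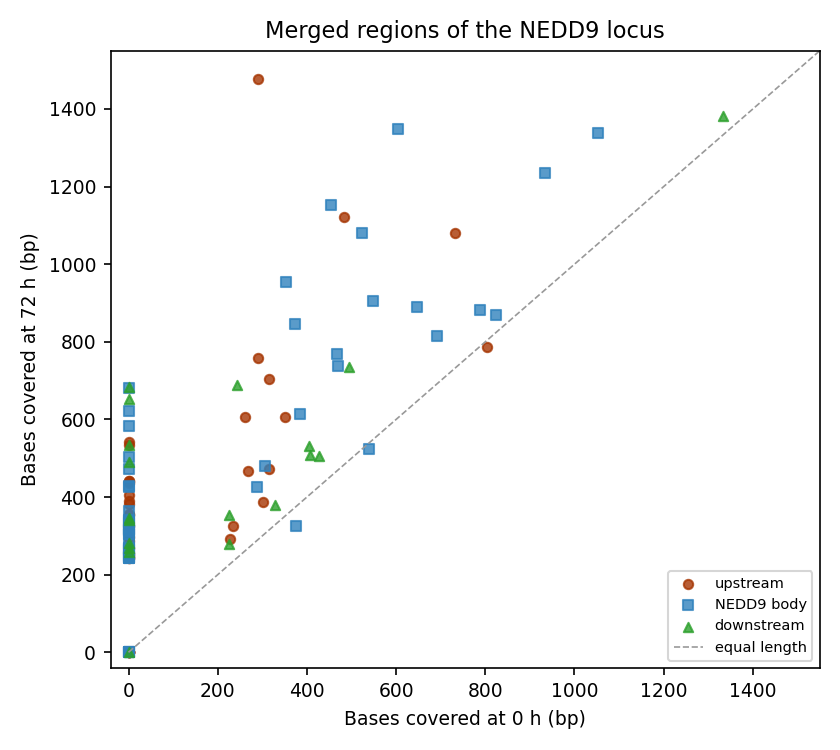
Each point is 1 of the 109 merged regions, with the bases covered in normoxia (x axis, bp) and after 72 h (y axis, bp), by part of the locus, and the dashed line marks equal length. Points on the left edge are regions absent in normoxia (up to 683 bp after 72 h, with those seen at neither time at 0), 3 points lie below the line, and the top point is the upstream region that went from 290 to 1476 bp.

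Set against the genome, the locus as a whole had the largest scaled ratio after 72 h of 2953 windows of 500 kb laid from its own start (mean of at least 20 kb), and the same after 48 h. For 72 h it stayed first by the difference in place of the ratio, and with the widest peaks of each list. It was also first when windows were laid at every 50 kb. Shifted windows that overlap the locus were left out of that ranking, so it was not set against its own shifted versions. For 48 h it was 3rd by the difference. By the ratio it was 5th after 24 h, 399th after 12 h and 43rd after 6 h. The locus is labelled as the strongest gain of 5-hmC and was chosen from these lists for its gain. Its first place is therefore a description and no independent check of the label. The gene by itself was not first. The NEDD9 body ranked 10th of 6833 windows of 200 kb after 72 h (mean of at least 8 kb) and 4th by the difference (31st of 3586 with peaks of at least 500 bp, 17th after 48 h), and the 200 kb directly upstream of it ranked 2nd. First was a window on chromosome 12 from 7.983 to 8.183 Mb, with a scaled ratio of 2.79. Ratios spread more widely among sparse windows. Among the 2202 windows whose mean covered length is within 25% of that of the body, the body ranked 2nd, and the median of those windows was 1.02.

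**Figure D5:**
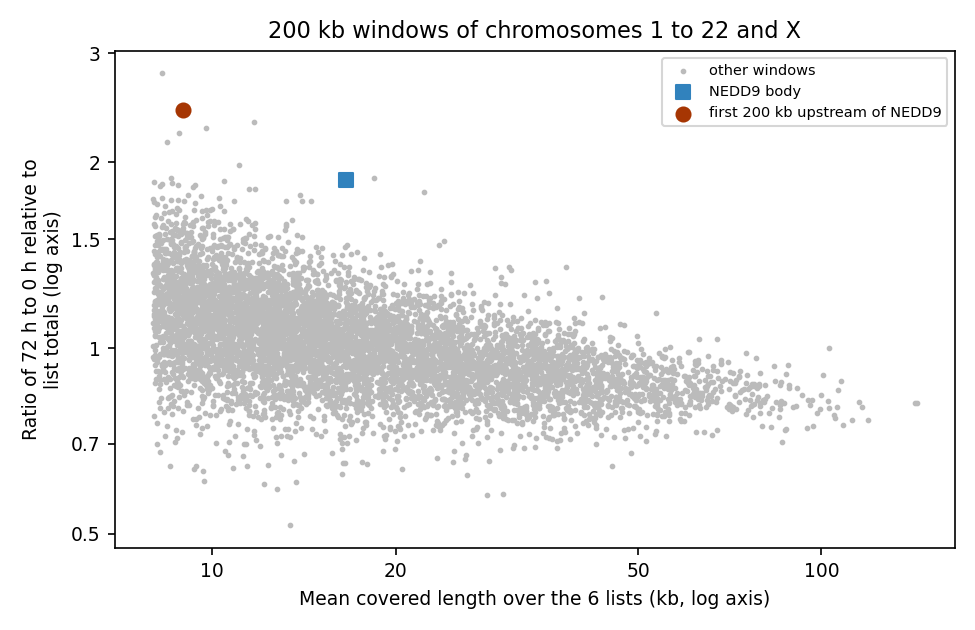
Each grey point is a 200 kb window, with its mean covered length over the 6 lists (x axis, kb, log axis) and its ratio of 72 h to 0 h relative to the list totals (y axis, log axis). The NEDD9 body at 1.87 and the 200 kb upstream of it at 2.43 lie at the upper edge, and the spread of the ratios is wider where covered length is small.

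Among the 33 other windows of 200 kb whose 72 h ratio was within 10% of that of the body, the 3 with the profile most like it over the 6 lists were on chromosome 2 from 182.783 to 182.983 Mb (Pearson's r = 0.994), chromosome 8 from 84.983 to 85.183 Mb (0.992) and chromosome 11 from 80.583 to 80.783 Mb (0.987). The 6 points of each profile come from the same 6 libraries, and the windows were preselected for their ratio, so r is a description. The chromosome 2 window covered 5.73 kb in normoxia, 7.91 kb after 24 h, 11.4 kb after 48 h and 13.8 kb after 72 h, with the same largest step, from 24 to 48 h, as in NEDD9. The body of NEDD9 covered more than any of the 3 at each time.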

How the data were processed

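5-hmC was captured from sheared genomic DNA of SK-N-BE(2) cells by glucose-azide labelling and biotin, per the labels' protocols, and sequenced in 1 library per time (0, 6, 12, 24, 48 and 72 h). Each deposited list gives the chromosome, start and end of peaks and no height, fold, p or q. The submitters' processing notes name hg19, BWA (0.7.17), HTSeq and MACS2, and for the calling threshold and control nothing is given in the sources used here. Samples were grouped by the labelled time and oxygen.

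The members and lists were chosen with earlier results of these data known. Bounds of the locus and of NEDD9 are those of the rule that defines the locus, as no hg19 annotation was used here, so the list of NEDD9 partners was not run. Covered length was clipped to each window, and peaks were counted by midpoint. Regions are peaks of any list joined where they overlap by at least 1 bp. Named regions are the 10 with the largest gain from 0 to 72 h, the 5 widest at 0 h, and, chosen after their values were seen, those at the upper bound. Windows like the body were the 3 with the highest Pearson's r among those within 10% of its ratio. No test across libraries was run, since the locus was chosen for its gain in these lists. Sequences are from RefSeq, GRCh38.p14, with all 3 NEDD9 starts matched by symbol. Python 3.11.15, numpy 2.4.6, pandas 2.3.3 and scipy 1.17.1 were used, and the computations were tested on simulated lists.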

Additional observations from a re-analysis of the deposited data

How the results depend on the processing

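The ratios of the body, the upstream and the downstream part stayed above 1 under all 24 alternatives run on them, from 1.54 to 7.42. These alternatives include ratios without scaling and ratios that use the 48 h list. The locus was chosen for its gain in these same lists, so ratios above 1 describe it and are no support for the gain. With peaks of at least 500 bp the upstream ratio was 7.42 and the downstream one 4.27, each over the only normoxia peak that wide (804 and 987 bp). Windows at or above the ratio were 3 with a ratio of 2 (1.67% of all windows) and 2 of 3 tested with peaks of at least 500 bp. Regions absent at 0 h and present at 72 h numbered 28 when peaks under 500 bp were dropped, 35 for the 285292 widest peaks of each list, and 28 when absent at 0 and 6 h and present at 48 and 72 h. Regions in all 5 hypoxia lists and not at 0 h numbered 1 when peaks under 500 bp were dropped, 3 for the widest peaks and 3 where peaks had to cover 0.5 of the region, and those in all 6 lists 8 with peaks of at least 500 bp and 22 with 0.5 covered. The rank of the body was 4 by difference, 31 of 3586 with peaks of at least 500 bp and 17 at 48 h. The region counts under these settings were made in the locus alone, with no share of all regions beside them. The causes were not tested. The 48 h list in place of 72 h, the demand for both late lists and the ranks of the 500 kb stretch were added after the data were seen. No rank could be had for the body at 4 times the minimum length, or for the 500 kb stretch with peaks of at least 500 bp, since both fell under the minimum. No paired analysis was possible because each time has 1 library. Depth is unknown, so its effect on weak sites has no value here.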
